A study of Mus musculus with 12 samples.

Results

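RNA-Seq data of donor T cells from the liver were examined for 7 transcription factor genes that direct the differentiation of effector T cells: Tbx21, Eomes, Prdm1, Bcl6, Id2, Zeb2, and Bhlhe40. They were chosen by name, as the rows of the count table with these gene symbols, and all 7 were found among the 25078 genes listed. Lethally irradiated BALB/c WT recipients were given T cell–depleted bone marrow from WT C57BL/6 donors together with C57BL/6 donor T cells, and the donor-type (H-2Kb+TCRβ+) CD4+ or CD8+ T cells were sorted from the liver on day 6 after hematopoietic cell transplantation (HCT). The donor T cells were WT, STAT3-/- (Stat3 fl/fl CD4-Cre, in which the Cd4 promoter drives Cre in T cells), or STAT3-/-PD-1-/- (the same conditional Stat3 deletion together with PD-1 deficiency), so every group shares the WT marrow, the irradiated host, and the tissue. There were 2 libraries in each of the 6 groups and 12 in all, and each library held cells combined from several recipients, and a replicate therefore stands for 1 such pool. Library totals were 21676125 to 24551477 counts on genes. Levels are given as CPM, that is counts scaled to a common library size with TMM factors of the 12 libraries, and levels of different genes are compared only as RPKM, which also divides by exon length. Because T cells were sequenced in bulk, fewer cells of one kind and less RNA per cell cannot be told apart.

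T-bet, encoded by Tbx21, and Eomesodermin, encoded by Eomes, are related T-box factors that turn on IFN-γ and cytotoxic genes, with Eomes used mainly by CD8+ T cells. Blimp-1, encoded by Prdm1, drives terminal effector differentiation and opposes Bcl-6, the factor that defines follicular helper T cells and that is known to be induced through STAT3 by cytokines such as IL-21. Id2 binds E proteins and keeps them from DNA, Zeb2 acts with T-bet in terminal CD8+ effector cells, and Bhlhe40 sustains inflammatory cytokine production by activated T cells. PD-1 is an inhibitory receptor of activated T cells.

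The libraries were first checked against their labels. Stat3 was at 369 and 467 CPM in WT CD4+ libraries, 140 and 164 in STAT3-/-, and 157 and 219 in STAT3-/-PD-1-/-. It was at 397 and 384 CPM in WT CD8+ libraries, 149 and 136 in STAT3-/-, and 154 and 235 in STAT3-/-PD-1-/-. Every STAT3-deficient library was thus below every WT library, although counts over all exons do not single out the deleted part of the gene. For Stat3, STAT3-/- as compared with WT gave a log2 fold change (log2 FC) of -1.46 in CD4+ T cells (SE 0.22, adjusted p = 0.055) and of -1.46 in CD8+ T cells (SE 0.20, adjusted p = 0.108), by the quasi-likelihood test of edgeR after Benjamini-Hochberg adjustment. Pdcd1, which encodes PD-1, was at 26.0 to 93.6 CPM in the 4 STAT3-/-PD-1-/- libraries and at 235 to 454 CPM in the other 8.

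Cd4 was at 1242 to 1887 CPM in CD4+ and at 0.356 to 2.73 CPM in CD8+ libraries. Cd8a was at 589 to 1339 CPM in CD8+ libraries, and the highest level in a CD4+ library was 5.64 CPM, in STAT3-/-PD-1-/- replicate 2. Both coreceptor genes were lower in the STAT3-/-PD-1-/- libraries, with a log2 FC as compared with WT of -1.09 for Cd8a in CD8+ T cells (edgeR, adjusted p = 0.00414) and of -0.52 for Cd4 in CD4+ T cells (adjusted p = 0.0375). The sum of 8 general T cell markers, led by Lck, was 4924 and 4447 CPM in WT, 4631 and 4322 in STAT3-/-, and 3389 and 3179 in STAT3-/-PD-1-/- CD8+ libraries, and 6057 and 4943, 5612 and 4812, and 4331 and 3861 CPM in the CD4+ libraries. Of these 8, edgeR's test called Cd2, Cd3d, Cd247, and Lck lower in STAT3-/-PD-1-/- as compared with WT CD8+ T cells and Cd2 lower in CD4+ T cells. These falls went with those of Bcl6 and Id2, and of the genes of the lists called lower, given below. Marker lists of other cells summed to at most 0.563 CPM for erythroid cells (6 genes, led by Alas2), 1.19 CPM for neutrophils (6 genes, led by S100a8), and 2.57 CPM for hepatocytes (8 genes, led by Apoa2). The list of 5 NK cell markers reached 56.4 CPM, nearly all of it Klrb1c, which activated T cells can also carry, while Klra8 was at 0 counts in all 12 libraries and Ncr1 had at most 9 counts. The dendritic cell list (6 genes) was led by Itgax, which effector CD8+ T cells also express, with 363 to 392 CPM in WT, 220 to 243 in STAT3-/-, and 20.2 to 27.8 in STAT3-/-PD-1-/- CD8+ libraries, while Flt3 had at most 1 count in any library. In CD4+ libraries Itgax was at 70.5 and 62.2 CPM in WT, 25.9 and 27.7 in STAT3-/-, and 4.98 and 5.72 in STAT3-/-PD-1-/-, and edgeR's test called it lower in all 3 CD4+ comparisons, beside the falls of Bcl6 and Id2. The B and plasma cell list (8 genes) reached 15.5 CPM and was led by Cd79b, and the macrophage list (8 genes) reached 36.1 CPM and was led by Cd68. In STAT3-/-PD-1-/- as compared with WT CD8+ T cells, Klrb1c (log2 FC -1.62, edgeR adjusted p = 0.028), Cd68 (-0.71, adjusted p = 0.0154), Itgax, and Cd79b were called lower, while Sdc1, a plasma cell marker with 3 to 12 counts in WT and 41 and 70 in STAT3-/-PD-1-/- CD8+ libraries, was called higher (edgeR, adjusted p = 0.0327). Sdc1 was also called higher in STAT3-/-PD-1-/- as compared with STAT3-/- in both subsets, with 24 and 38 counts in the CD4+ libraries. The endothelial and stellate list (8 genes), led by Pecam1, summed to 111 to 198 CPM. The part of these cells in the results below was not tested.

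Per length, the 7 factors fell into a high and a low set in WT CD4+ T cells. The mean RPKM was 793 ± 133 for Id2 (SD, n = 2 here and below) and 649 ± 452 for Bhlhe40, followed by 48.02 ± 14.9 for Tbx21 and 24.5 ± 2.81 for Prdm1. Bcl6, Eomes, and Zeb2 were far lower, at 2.94 ± 1.17, 0.859 ± 0.105, and 0.687 ± 0.0952 RPKM. The libraries of Id2 and Bhlhe40 overlapped, whereas those of every other pair of neighbours in this order did not. In WT CD8+ T cells the order of the top 4 was the same, with Id2 at 607 ± 186 RPKM, but Eomes (8.17 ± 0.144 RPKM) stood above Zeb2 (1.02 ± 0.217 RPKM) and Bcl6 (0.882 ± 0.116 RPKM), which overlapped.

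**Figure D1:**
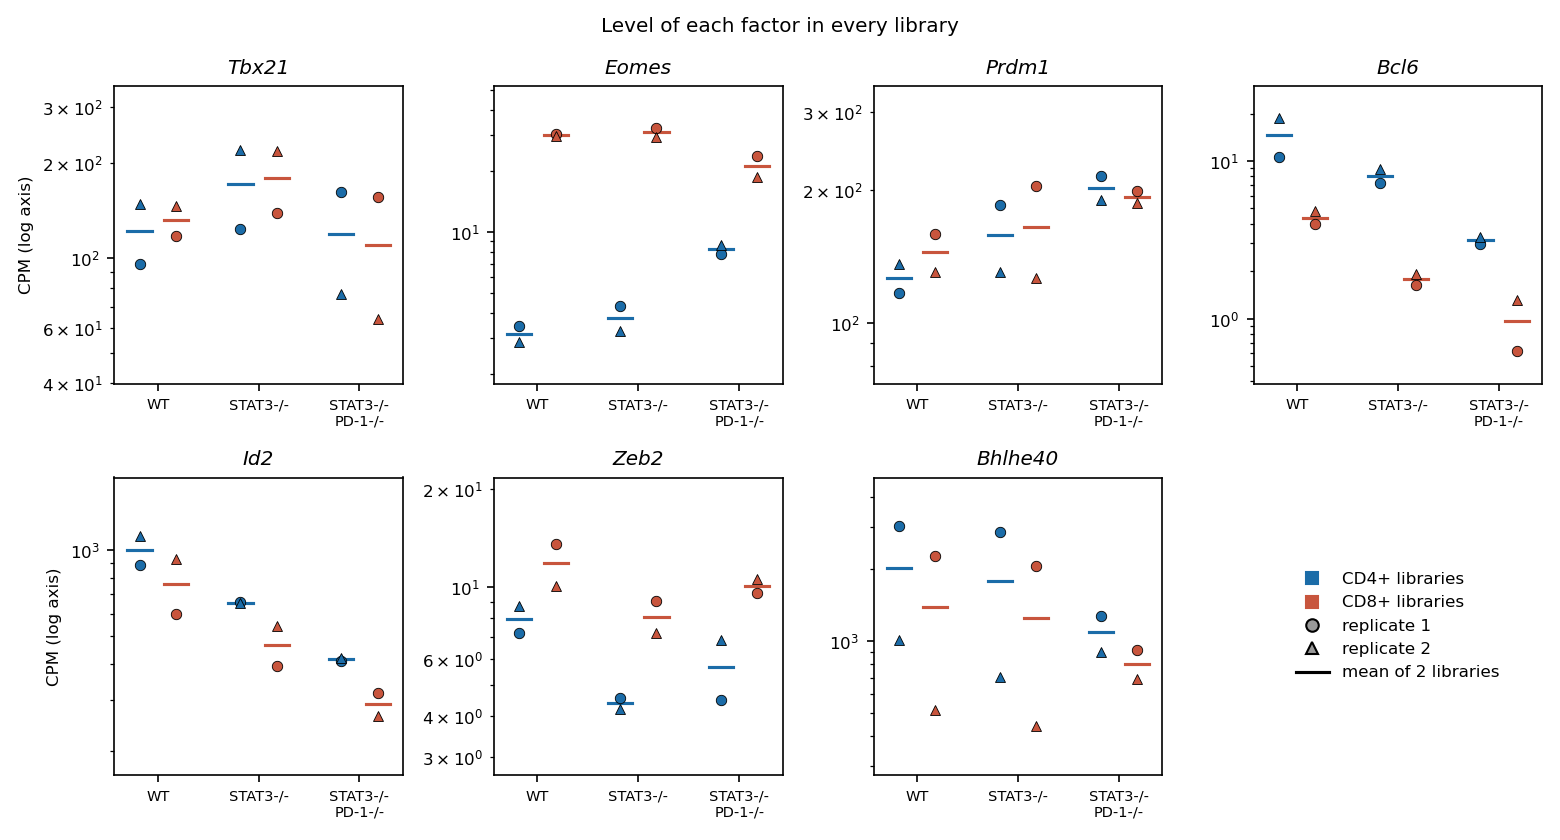
Level of each factor in every library (CPM after TMM scaling, log axis) by donor genotype, with CD4+ libraries in blue, CD8+ libraries in red, circles for replicate 1, triangles for replicate 2, and bars for the mean of 2 libraries. Bcl6 and Id2 step down from WT to STAT3-/- to STAT3-/-PD-1-/- in both subsets, Eomes rises in CD4+ and is lower in CD8+ STAT3-/-PD-1-/- libraries, and the Bhlhe40 replicates lie far apart in WT and STAT3-/-.

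The genotype comparisons asked whether loss of STAT3, and of PD-1 on top of it, went with a change in these factors. Bcl6 and Id2 were the factors that fell in both subsets, and Eomes rose in CD4+ T cells. In CD4+ T cells from STAT3-/-PD-1-/- as compared with WT donors, edgeR's test with Benjamini-Hochberg adjustment over 11959 genes called 3 of 7 factors (Eomes higher, Bcl6 and Id2 lower), where 12.9% of all genes tested were called (7.21% higher, 5.65% lower). Set against STAT3-/- donors, the 3 called were again Eomes, Bcl6, and Id2, where 11.1% of all genes were called (6.05% higher, 5.03% lower). Among CD8+ T cells (12002 genes tested), 2 of 7 were called in STAT3-/-PD-1-/- as compared with WT (Bcl6 and Id2, both lower), where 17.2% of all genes were called (9.01% higher, 8.21% lower). These comparisons share libraries with each other and are given side by side.

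Loss of STAT3 alone gave no call by this test without a block. For STAT3-/- as compared with WT, edgeR's test called 0 of 7 factors in CD4+ T cells, where 0.334% of all genes were called (0.151% higher, 0.184% lower), and 0 of 7 in CD8+ T cells, where 0.0583% of all genes were called (0.0167% higher, 0.0417% lower). With the replicate number as a block in the CD4+ fit, edgeR's test called 1 of 7 (Id2) and 303 genes. Without a block, 3 factors in each subset had an unadjusted p under 0.05 (edgeR; Bcl6, Id2, and Zeb2, all lower). So did 1259 of 11959 genes in CD4+ and 1315 of 12002 in CD8+ T cells. DESeq2 called 1 in CD4+ (Id2) and 0 in CD8+ T cells. Limma on log2(RPKM + 1) called 0 in both, but its minimum mean RPKM of 1 left only 6 factors to test in CD4+ (not Zeb2) and 5 in CD8+ T cells (not Zeb2 or Bcl6). Between STAT3-/-PD-1-/- and STAT3-/- CD8+ T cells, edgeR's test also called 0 of 7, where 16.8% of all genes were called (8.76% higher, 8.05% lower). At an unadjusted p under 0.05 there were 2 (Eomes and Id2), beside 4128 of 12002 genes. DESeq2 called the same 2 and limma 0 of the 5 it tested. The libraries of STAT3-/- and WT did not overlap for 3 of 7 factors in CD4+ T cells, where 38.2% of all genes did not overlap, and for 3 of 7 in CD8+ T cells, where 43.6% did not. Those of STAT3-/-PD-1-/- and WT did not overlap for 5 of 7 in CD4+ T cells (59.2% of all genes) and 4 of 7 in CD8+ T cells (59.7% of all genes), and those of STAT3-/-PD-1-/- and STAT3-/- for 4 of 7 in CD4+ (59.2% of all genes) and 4 of 7 in CD8+ T cells (63.1% of all genes). With background shares this high, these counts say little about the 7 factors. The median log2 FC of the 7 factors in STAT3-/-PD-1-/- as compared with WT was -0.464 for CD4+ and -0.492 for CD8+ T cells, beside -0.0108 and -0.000618 over all genes tested. These medians are the values of Zeb2 in CD4+ and Eomes in CD8+ T cells, neither of which was called there. The factors ran from -2.20 (Bcl6) to 1.40 (Eomes) in CD4+ and from -2.16 (Bcl6) to 0.42 (Prdm1) in CD8+ T cells. A median of 7 such values thus says little about the factors as a set.

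**Figure D2:**
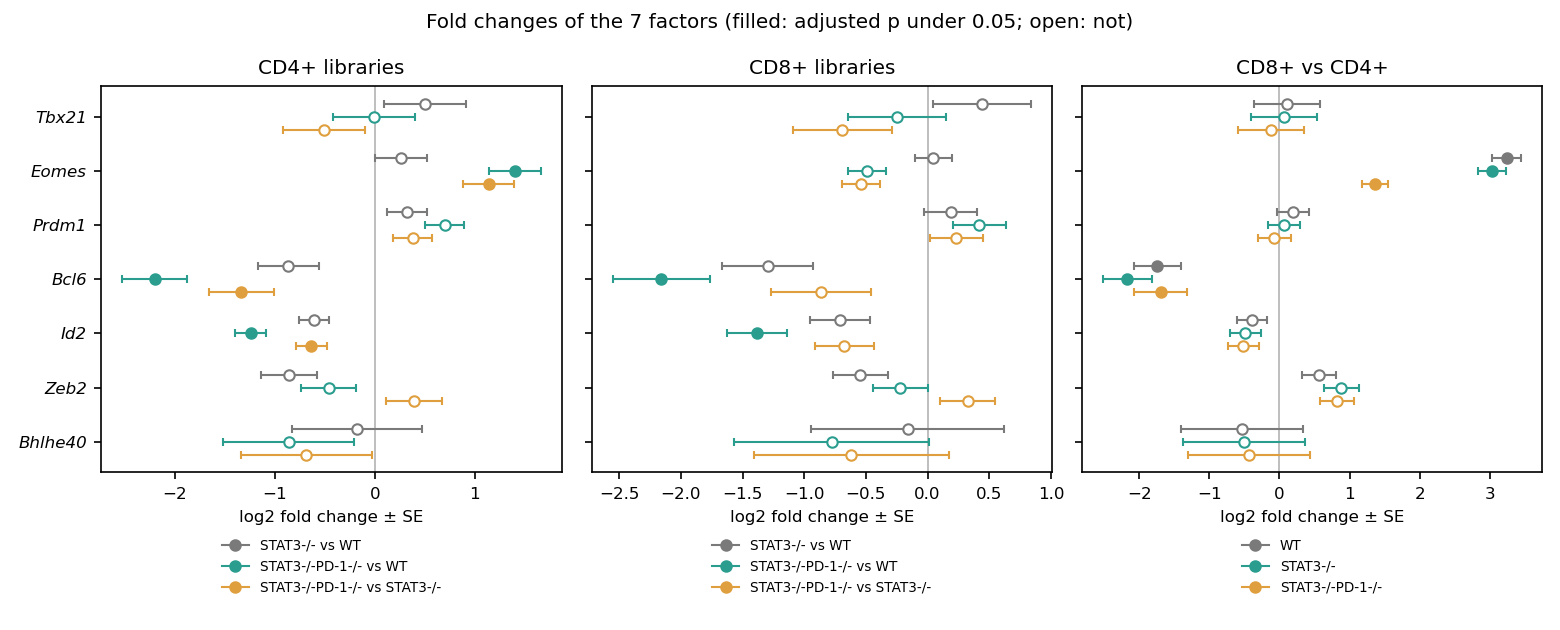
Log2 fold change with its SE for the 7 factors (edgeR), with filled points for an adjusted p under 0.05 and open points for the rest. The left and middle panels hold the 3 genotype comparisons in CD4+ and CD8+ T cells, and the right panel holds CD8+ as compared with CD4+ T cells in each genotype. Bcl6 lies left of 0 in all 9 comparisons, Eomes reaches 3.24 in the right panel, and Bhlhe40 has the longest error bars, with an SE of 0.65 to 0.87.

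Bcl6, on chromosome 16 (mm10, 23965050-23988852, minus strand), is the repressor that opposes Prdm1. Among CD4+ T cells it was at 10.6 and 18.7 CPM in WT, 7.21 and 8.85 in STAT3-/-, and 2.99 and 3.30 in STAT3-/-PD-1-/- libraries. Its level in CD8+ T cells was lower, at 3.96 and 4.79 CPM in WT, 1.64 and 1.92 in STAT3-/-, and 0.619 and 1.31 in STAT3-/-PD-1-/- libraries, the last resting on 14 and 32 counts. Within each subset the libraries of the 3 genotypes did not overlap, and the order was WT, STAT3-/-, STAT3-/-PD-1-/- from high to low. Bcl6 fell in STAT3-/-PD-1-/- CD4+ T cells, with a log2 FC of -2.20 as compared with WT (SE 0.33, edgeR adjusted p = 0.00839) and -1.33 as compared with STAT3-/- (SE 0.32, edgeR adjusted p = 0.0414), the latter not called by limma on log2(RPKM + 1) (-0.66, adjusted p = 0.12). It also fell in STAT3-/-PD-1-/- CD8+ T cells as compared with WT (log2 FC -2.16, SE 0.39, edgeR adjusted p = 0.0144). The difference between STAT3-/- and WT did not pass, with a log2 FC of -0.87 in CD4+ (SE 0.31, adjusted p = 0.364) and -1.30 in CD8+ T cells (SE 0.37, adjusted p = 0.301), and neither did that between STAT3-/-PD-1-/- and STAT3-/- in CD8+ T cells (-0.86, SE 0.40, adjusted p = 0.177).

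The calls on Bcl6 depended on each STAT3-/-PD-1-/- library. Without STAT3-/-PD-1-/- replicate 1 or replicate 2, the log2 FC in CD4+ T cells as compared with WT was -2.12 (edgeR, adjusted p = 0.0813) or -2.29 (adjusted p = 0.0882). Against STAT3-/-, it was -1.26 (edgeR, adjusted p = 0.161) or -1.42 (adjusted p = 0.23), and without STAT3-/- replicate 2 it was -1.17 (adjusted p = 0.101). The log2 FC in CD8+ T cells, against WT, was -1.74 without STAT3-/-PD-1-/- replicate 1 (edgeR, adjusted p = 0.0534), -2.81 without replicate 2 (adjusted p = 0.0546), and -2.03 without WT replicate 2 (adjusted p = 0.0532).

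Because Bcl6 is known as a target of STAT3, its RefSeq promoter windows (GRCm38.p6, 250 bases before to 50 after a start site) were read for the STAT-type motif TTCNNNGAA, which is palindromic and so reads the same on both strands, and which resembles the site that Bcl-6 itself binds. Of 32851 such windows of the genome, 8.3% held the motif and 0.0335% (11 windows) held it at least 3 times. Bcl6 has 2 windows, with 1 and 3 matches (2 of the 3 also match the narrower TTCCNGGAA, which 1.15% of windows hold), and the stretches around the matches, upstream of each start site, are shown 5′ to 3′ on the minus strand with the matches in capitals.
Bcl6 upstream start, chr16:23988942-23988990: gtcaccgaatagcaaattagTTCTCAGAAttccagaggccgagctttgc
Bcl6 downstream start, chr16:23981343-23981471: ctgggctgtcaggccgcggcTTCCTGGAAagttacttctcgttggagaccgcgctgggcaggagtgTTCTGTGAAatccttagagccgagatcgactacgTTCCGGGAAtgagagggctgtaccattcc
Of the 6 factors with a window in the table (10 windows in all), Bcl6 and Zeb2 held a match, and Tbx21, Eomes, Prdm1, and Id2 did not hold these letters in the windows given. Other motifs searched on both strands were CACGTG (7.15% of all windows), CAGGTG (20.2%), AGGTGTGA (1.28%), and GAAAGT (14.3%), of which Bcl6 held CACGTG in its upstream window and GAAAGT in its downstream window. A match is a description of the letters and not of binding.

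Prdm1 (chromosome 10, 44437174-44458748, minus strand) was at 117 and 136 CPM in WT, 185 and 130 in STAT3-/-, and 215 and 189 in STAT3-/-PD-1-/- CD4+ libraries. In CD8+ libraries it was at 159 and 130 CPM in WT, 204 and 127 in STAT3-/-, and 198 and 186 in STAT3-/-PD-1-/-. In both subsets the STAT3-/-PD-1-/- libraries were above the WT libraries, and the STAT3-/- libraries overlapped with WT. The log2 FC in STAT3-/-PD-1-/- as compared with WT was 0.70 in CD4+ (SE 0.20, edgeR adjusted p = 0.0578) and 0.42 in CD8+ T cells (SE 0.22, edgeR adjusted p = 0.217), so Prdm1 did not pass the threshold. In CD4+ T cells it passed by DESeq2 (0.68, adjusted p = 0.0169), which called 4 of 7 factors here, and by edgeR on all genes with at least 1 count (0.69, adjusted p = 0.0342) or on only the groups compared (0.69, adjusted p = 0.0239). With the replicate number as a block, which the pairing of the CD4+ libraries warranted, it was 0.69 (edgeR, adjusted p = 0.0211) and passed. Without STAT3-/- replicate 1 or replicate 2, libraries that are not in this comparison but share its estimate of the spread, it also passed (log2 FC 0.70 in both, edgeR adjusted p = 0.0222 and 0.0232).

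The balance of the opposed pair can be read within each library as the log2 ratio of Prdm1 to Bcl6 in RPKM. It was 3.41 and 2.81 in WT CD4+ libraries, 4.63 and 3.83 in STAT3-/-, and 6.12 and 5.79 in STAT3-/-PD-1-/-. In CD8+ libraries it was 5.28 and 4.72 in WT, 6.90 and 5.99 in STAT3-/-, and 8.27 and 7.11 in STAT3-/-PD-1-/-. The groups of a subset did not overlap, and their means corresponded to 8.64, 18.8, and 62.0 Prdm1 to 1 Bcl6 in CD4+ and to 31.9, 87.3, and 206 to 1 in CD8+ T cells. The last value rests on 14 and 32 counts of Bcl6. Much of the rise restates the fall of Bcl6, since Prdm1 was not called by edgeR's test without a block. With 2 libraries against 2, the smallest p that an exact 2-sided permutation test of such a ratio allows is 0.333, and no test was made.

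**Figure D3:**
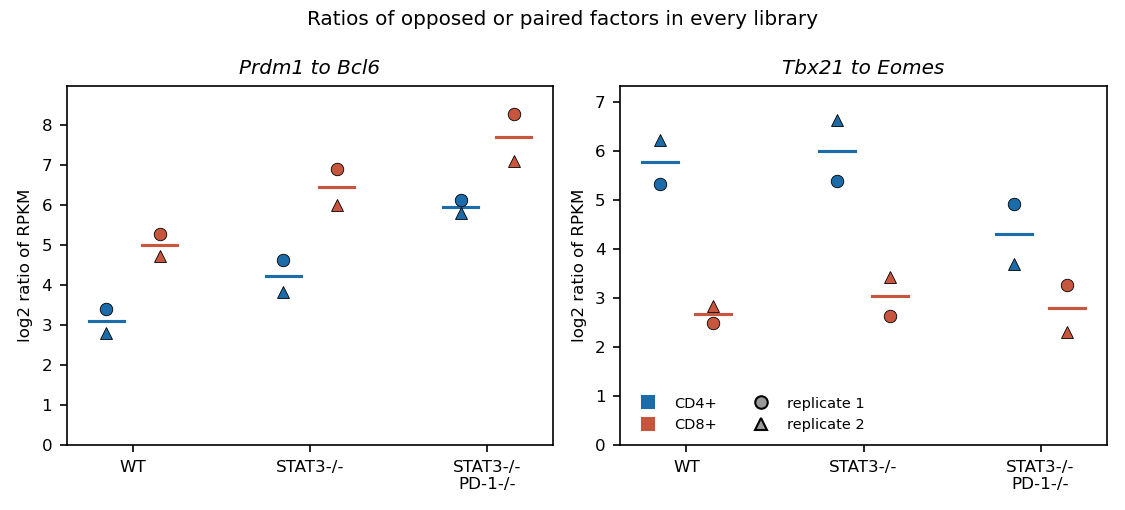
Log2 ratio of RPKM within each library for Prdm1 to Bcl6 (left) and Tbx21 to Eomes (right), by donor genotype, with CD4+ libraries in blue, CD8+ libraries in red, circles for replicate 1, triangles for replicate 2, and bars for the mean of 2 libraries. The ratio of Prdm1 to Bcl6 steps up from 3.11 to 5.96 in CD4+ and from 5.00 to 7.69 in CD8+ T cells, and that of Tbx21 to Eomes is lowest in CD4+ T cells in the STAT3-/-PD-1-/- libraries.

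Id2 (chromosome 12, 25093799-25096092, minus strand), the inhibitor of E proteins, fell along the same order of genotypes as Bcl6, from a far higher level. Its level in CD4+ T cells was 887 and 1115 CPM in WT, 656 and 655 in STAT3-/-, and 412 and 422 in STAT3-/-PD-1-/- libraries. CD8+ libraries had 596 and 930 CPM in WT, 394 and 542 in STAT3-/-, and 319 and 264 in STAT3-/-PD-1-/- libraries. The libraries of the 3 genotypes did not overlap in either subset. Id2 fell in STAT3-/-PD-1-/- CD4+ T cells, with a log2 FC of -1.24 as compared with WT (SE 0.15, edgeR adjusted p = 0.0053) and -0.64 as compared with STAT3-/- (SE 0.15, edgeR adjusted p = 0.0405), the latter not called by limma (-0.61, adjusted p = 0.0519). For CD8+ T cells it fell as compared with WT (log2 FC -1.38, SE 0.25, edgeR adjusted p = 0.0135), while -0.67 as compared with STAT3-/- did not pass (SE 0.24, edgeR adjusted p = 0.0968).

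Loss of STAT3 alone gave Id2 a log2 FC of -0.61 in CD4+ (SE 0.15, edgeR adjusted p = 0.207) and -0.71 in CD8+ T cells (SE 0.24, edgeR adjusted p = 0.369), as compared with WT. With the replicate number as a block in the CD4+ fit it was -0.60 and passed (edgeR, adjusted p = 0.0492). The fall of Id2 in STAT3-/-PD-1-/- as compared with WT was -1.22 and -1.27 in CD4+ T cells without STAT3-/-PD-1-/- replicate 1 or 2 (edgeR, adjusted p = 0.0648 and 0.0741), and -1.53 and -1.26 in CD8+ T cells (adjusted p = 0.0631 and 0.109). Against STAT3-/- CD4+ T cells it missed the threshold without any of the 4 libraries compared, at -0.67 to -0.61 (edgeR, adjusted p = 0.0656 without STAT3-/- replicate 1, 0.103 without STAT3-/- replicate 2, 0.157 and 0.233 without STAT3-/-PD-1-/- replicate 1 or 2). Against STAT3-/- CD8+ T cells it passed without WT replicate 1 (-0.68, edgeR adjusted p = 0.0355) or WT replicate 2 (-0.69, adjusted p = 0.0409).

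Eomes (chromosome 9, 118478189-118486132, plus strand) had differences of opposite sign in CD4+ and CD8+ T cells. CD4+ libraries held little of it, at 3.46 and 2.88 CPM in WT, 4.33 and 3.25 in STAT3-/-, and 7.79 and 8.66 in STAT3-/-PD-1-/- libraries. CD8+ libraries were higher, at 30.3 and 29.7 CPM in WT, 32.6 and 29.4 in STAT3-/-, and 23.6 and 18.7 in STAT3-/-PD-1-/-. Both STAT3-/-PD-1-/- libraries were thus above all others of CD4+ T cells and below all others of CD8+ T cells, while WT and STAT3-/- overlapped in both. Eomes rose in STAT3-/-PD-1-/- CD4+ T cells, with a log2 FC of 1.40 as compared with WT (SE 0.26, edgeR adjusted p = 0.0158) and 1.14 as compared with STAT3-/- (SE 0.26, edgeR adjusted p = 0.034). The same comparisons in CD8+ T cells gave -0.49 (SE 0.15, edgeR adjusted p = 0.067) and -0.54 (SE 0.15, edgeR adjusted p = 0.0521), which did not pass, while DESeq2 called both (-0.50, adjusted p = 0.037, and -0.55, adjusted p = 0.0205).

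Whether the step from STAT3-/- to STAT3-/-PD-1-/- differed between the subsets was tested by an interaction term, with all 12 libraries and 12334 genes. The term was -1.67 for Eomes on the log2 scale (SE 0.27, unadjusted p = 9.11e-05), with an edgeR adjusted p of 0.274, and 0 genes and 0 of 7 factors passed. At an unadjusted p under 0.05 there were 443 genes, and among the 7 factors Eomes alone. DESeq2 gave -1.67 (adjusted p = 0.000178), and edgeR on all genes with at least 1 count gave -1.66 (adjusted p = 0.0317). A block on the pool of recipients, which gave both subsets, was an alternative chosen after seeing the data. With that block the term was -1.69 (edgeR, adjusted p = 0.0416). It did not pass with the replicate number as a block (-1.69, edgeR adjusted p = 0.0613), with RLE factors (-1.66, adjusted p = 0.295), with only the groups compared (-1.70, adjusted p = 0.534), or by limma (-1.17, adjusted p = 0.30). DESeq2 called 21 genes and limma 0. The same interaction for the step from WT to STAT3-/- was -0.21 for Eomes (SE 0.27, edgeR adjusted p = 1), with 0 genes passing, 228 at an unadjusted p under 0.05, 5 by DESeq2, and 1 by limma.

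Eomes in CD4+ libraries was 9.70% to 13.3% of its level in the CD8+ library of the same genotype and number in WT and STAT3-/-, and 32.9% and 46.2% in STAT3-/-PD-1-/-. Cd8a in the same pairs was 0.0414% to 0.165% in WT and STAT3-/- and 0.189% and 0.957% in STAT3-/-PD-1-/-, below the share of Eomes in every pair. Cd8b1 was 0.796% to 1.28% and 2.54% and 3.32% in these pairs. The Eomes shares in STAT3-/-PD-1-/- also reflect its lower level in the CD8+ libraries of that genotype (23.6 and 18.7 CPM). Whether CD8+ T cells among the sorted CD4+ T cells contributed to Eomes there was not tested. The call on Eomes in CD4+ T cells as compared with WT was lost without any 1 of the 4 libraries compared, at 1.52 without WT replicate 1 (edgeR, adjusted p = 0.0514), 1.27 without WT replicate 2 (adjusted p = 0.0882), 1.48 without STAT3-/-PD-1-/- replicate 1 (adjusted p = 0.0803), and 1.31 without replicate 2 (adjusted p = 0.118). The log2 FC against STAT3-/- was 0.95 without STAT3-/- replicate 2 (edgeR, adjusted p = 0.135), and 1.22 and 1.05 without STAT3-/-PD-1-/- replicate 1 or 2 (adjusted p = 0.098 and 0.219).

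Tbx21 (chromosome 11, 97098007-97115331, minus strand), the gene of T-bet, passed in 0 of the comparisons, and its replicates went opposite ways. It was at 95.3 and 148 CPM in WT, 124 and 219 in STAT3-/-, and 162 and 76.9 in STAT3-/-PD-1-/- CD4+ libraries, given as replicate 1 and 2. The CD8+ libraries were at 117 and 146 CPM in WT, 139 and 218 in STAT3-/-, and 156 and 64.0 in STAT3-/-PD-1-/-. Replicate 2 was the higher in all 4 WT and STAT3-/- groups and the lower in both STAT3-/-PD-1-/- groups. The log2 FC in STAT3-/-PD-1-/- as compared with WT was -0.01 in CD4+ (SE 0.41, edgeR adjusted p = 0.993) and -0.25 in CD8+ T cells (SE 0.40, edgeR adjusted p = 0.704). Taken within a replicate number, it was 0.76 in replicate 1 and -0.94 in replicate 2 of CD4+ T cells, and 0.42 and -1.19 in CD8+ T cells. Without STAT3-/-PD-1-/- replicate 1 it was -0.63 and without replicate 2 it was 0.42 in CD4+ T cells, and it was -1.04 and 0.25 in CD8+ T cells. STAT3-/- as compared with WT gave 0.50 in CD4+ (SE 0.41) and 0.44 in CD8+ T cells (SE 0.40), and positive in both numbers of both subsets, but did not pass (edgeR, adjusted p = 0.772 and 0.746).

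The log2 ratio of Tbx21 to Eomes in RPKM was 5.33 and 6.22 in WT CD4+ libraries, 5.38 and 6.62 in STAT3-/-, and 4.92 and 3.69 in STAT3-/-PD-1-/-. In CD8+ libraries it lay between 2.31 and 3.43 in all 3 genotypes, which overlapped. In CD4+ T cells the STAT3-/-PD-1-/- libraries lay below the other 4.

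Zeb2 (chromosome 2, 44983512-45117442, minus strand), a partner of T-bet in terminal effector cells, was low throughout. It was at 7.23 and 8.72 CPM in WT, 4.57 and 4.22 in STAT3-/-, and 4.50 and 6.87 in STAT3-/-PD-1-/- CD4+ libraries. In CD8+ libraries it was at 13.6 and 10.1 CPM in WT, 9.02 and 7.20 in STAT3-/-, and 9.55 and 10.6 in STAT3-/-PD-1-/-. Both STAT3-/- libraries lay below both WT libraries in each subset, by a log2 FC of -0.86 in CD4+ (SE 0.28, edgeR adjusted p = 0.315) and -0.54 in CD8+ T cells (SE 0.22, edgeR adjusted p = 0.433), which did not pass. Relative to STAT3-/-, the STAT3-/-PD-1-/- libraries were at 0.39 in CD4+ (SE 0.28) and 0.32 in CD8+ T cells (SE 0.22), and neither passed (edgeR, adjusted p = 0.391 and 0.337). The antisense gene Zeb2os overlaps Zeb2, and the strand setting of the counting is not given in the sources used here, but it held 29 counts over the 12 libraries against 2251 for Zeb2.

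Bhlhe40 (chromosome 6, 108660629-108666925, plus strand) was among the most abundant of the 7, and its replicates lay far apart in WT and STAT3-/-. It was at 3006 and 1011 CPM in WT, 2843 and 703 in STAT3-/-, and 1271 and 897 in STAT3-/-PD-1-/- CD4+ libraries, given as replicate 1 and 2. In CD8+ libraries it was at 2268 and 512 CPM in WT, 2052 and 440 in STAT3-/-, and 915 and 692 in STAT3-/-PD-1-/-. Replicate 1 was the higher in all 6 groups, and all genotypes overlapped. The log2 difference of replicate 2 from replicate 1 was -1.57 and -2.01 in WT and STAT3-/- CD4+ T cells and -2.15 and -2.22 in the CD8+ T cells of the same genotypes, and 0.738% to 1.62% of genes differed by more between these replicates. STAT3-/-PD-1-/- CD4+ T cells had -0.50 and CD8+ T cells -0.40, where 17.0% and 24.3% of genes differed by more.

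The log2 FC of Bhlhe40 in STAT3-/-PD-1-/- as compared with WT was -0.86 in CD4+ (SE 0.66, edgeR adjusted p = 0.434) and -0.78 in CD8+ T cells (SE 0.79, edgeR adjusted p = 0.536). Within replicate 1 the CD4+ T cells had -1.24 and the CD8+ T cells -1.31, and within replicate 2 they had -0.17 and 0.43. Without WT replicate 1 it was 0.11 for CD4+ and 0.65 for CD8+ T cells. Against STAT3-/- it was -1.16 and 0.35 within replicate 1 and 2 of CD4+ T cells and -1.17 and 0.65 in CD8+ T cells. Between STAT3-/- and WT the log2 FC was -0.18 in CD4+ (SE 0.65, edgeR adjusted p = 0.964) and -0.16 in CD8+ T cells (SE 0.78, edgeR adjusted p = 0.971).

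**Figure D4:**
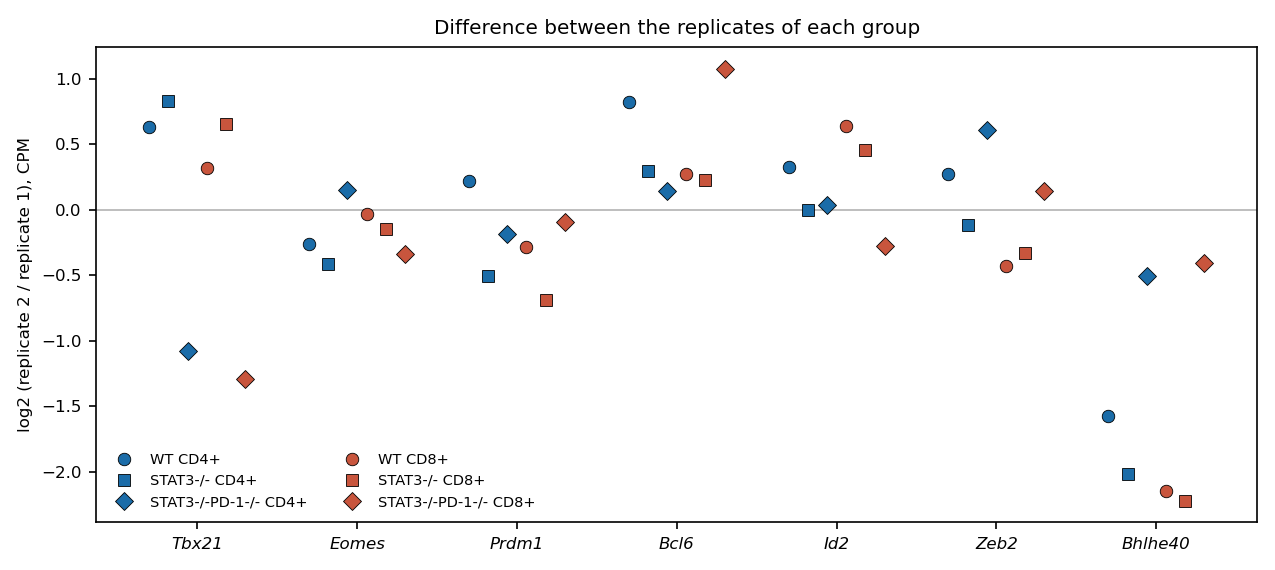
Log2 difference of replicate 2 from replicate 1 (CPM) for the 7 factors in each of the 6 groups, with CD4+ T cells in blue, CD8+ T cells in red, circles for WT, squares for STAT3-/-, and diamonds for STAT3-/-PD-1-/-. Bhlhe40 lies between -2.22 and -1.57 in WT and STAT3-/- and between -0.50 and -0.40 in STAT3-/-PD-1-/-, and Tbx21 is above 0 in WT and STAT3-/- and at -1.29 and -1.07 in STAT3-/-PD-1-/-.

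The genes with the profile most like each factor were sought among the 8606 genes whose mean log2 CPM was 3 or more, by the root mean square difference of centred log2 CPM over the 12 libraries. For Bhlhe40 they were Nfkbia, the inhibitor of NF-κB, and Ctla4, an inhibitory receptor, at a difference of 0.136 and 0.206 beside a spread of 0.908 for Bhlhe40 itself. Nfkbia differed between replicate 2 and 1 by -1.53, -1.96, and -0.54 in WT, STAT3-/-, and STAT3-/-PD-1-/- CD4+ T cells and by -1.90, -2.00, and -0.34 in CD8+ T cells, and Ctla4 by -1.40, -2.06, and -0.34 and by -1.77, -1.81, and -0.22. Both genes, chosen for this likeness, thus had the replicate gap of Bhlhe40 in the same libraries. For the rest, the nearest genes were Iqcc and Exoc8 for Tbx21 (0.182 and 0.189 beside 0.517), Gpr160 and Usp11 for Eomes (0.398 and 0.449 beside 1.35), and Tssc4 and Suz12 for Prdm1 (0.134 and 0.148 beside 0.302). They were Rgs10 and Selenop for Bcl6 (0.386 and 0.403 beside 1.30), Ctsa and Plekho1 for Id2 (0.199 and 0.207 beside 0.614), and Slc12a4 and Bcr for Zeb2 (0.240 and 0.247 beside 0.507).

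CD8+ and CD4+ T cells were then compared within each genotype, in the fit of the 12 libraries. In WT, edgeR's test called 2 of 7 factors (Eomes higher, Bcl6 lower in CD8+ T cells), where 10.5% of all genes were called (4.91% higher, 5.59% lower). The same 2 were called in STAT3-/-, where 9.62% of all genes were called (4.81% higher, 4.82% lower), and in STAT3-/-PD-1-/-, where 4.14% were called (1.65% higher, 2.5% lower). Libraries of the subsets did not overlap for 3, 4, and 4 of 7 factors in the 3 genotypes, beside 48.1%, 47.5%, and 46.5% of all genes. Eomes was higher in CD8+ T cells, with a log2 FC of 3.24 in WT (SE 0.20, edgeR adjusted p = 1.41e-05), 3.03 in STAT3-/- (SE 0.20, adjusted p = 2.11e-05), and 1.36 in STAT3-/-PD-1-/- (SE 0.19, adjusted p = 0.00304). Bcl6 was lower in CD8+ T cells, with a log2 FC of -1.74 in WT (SE 0.33, edgeR adjusted p = 0.00795), -2.17 in STAT3-/- (SE 0.35, adjusted p = 0.00421), and -1.69 in STAT3-/-PD-1-/- (SE 0.38, adjusted p = 0.0346). For Bcl6 the call in WT was lost without WT CD4 replicate 2 (-1.28, edgeR adjusted p = 0.0689) or WT CD8 replicate 1 (-1.61, adjusted p = 0.0755). For STAT3-/-PD-1-/- the Bcl6 call was lost without each of the 6 CD8+ libraries, with an edgeR adjusted p from 0.0512 without STAT3-/-PD-1-/- CD8 replicate 2 (-2.34) to 0.236 without replicate 1 (-1.25), and without STAT3-/-PD-1-/- CD4 replicate 1 (-1.77, edgeR adjusted p = 0.134) or 2 (-1.61, adjusted p = 0.162).

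Zeb2 was at a higher level in both CD8+ libraries of every genotype, with a log2 FC of 0.57 in WT (SE 0.24), 0.88 in STAT3-/- (SE 0.25), and 0.82 in STAT3-/-PD-1-/- (SE 0.25), but did not pass (edgeR, adjusted p = 0.206, 0.0559, and 0.112). In STAT3-/- it passed by DESeq2 (0.88, adjusted p = 0.024), on all genes with at least 1 count (0.88, edgeR adjusted p = 0.0412), and with the replicate number as a block (0.88, edgeR adjusted p = 0.0355). That block covered the 12 libraries, although the CD8+ groups were not taken as paired with each other. Id2 was at -0.39, -0.49, and -0.52 (edgeR, adjusted p = 0.347, 0.224, and 0.299), and Tbx21 and Prdm1 lay between -0.12 and 0.20 in all 3 genotypes. Bhlhe40 was at -0.53, -0.51, and -0.43 (edgeR, adjusted p = 0.813, 0.819, and 0.916). The CD4+ and CD8+ libraries of one genotype and number deviated together, so that the comparison was also fitted with the pool of recipients as a block, an alternative chosen after seeing the data. In that fit Bhlhe40 was called in WT (-0.69, edgeR adjusted p = 0.00625) and STAT3-/- (-0.57, adjusted p = 0.0148), but not in STAT3-/-PD-1-/- (-0.42, adjusted p = 0.0686). Id2 was called in STAT3-/- (-0.51, edgeR adjusted p = 0.0259) and STAT3-/-PD-1-/- (-0.52, adjusted p = 0.0348), and Zeb2 in STAT3-/- (0.88, adjusted p = 0.0173) and STAT3-/-PD-1-/- (0.84, adjusted p = 0.0261). The genes called rose to 2991, 3077, and 1774 in the 3 genotypes. Without either STAT3-/-PD-1-/- CD4 library, Zeb2 passed in STAT3-/- without the block as well (0.88, edgeR adjusted p = 0.0426 in both).

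Genes that act with or under these factors were counted from lists. Of 12 known targets of T-bet and Eomes, all tested, edgeR's test called 1 higher and 1 lower in STAT3-/-PD-1-/- as compared with WT CD4+ T cells, with a median log2 FC of -0.194 over the list, where 7.21% of all genes tested were higher and 5.65% lower. Prf1, which encodes perforin, rose (log2 FC 0.84, adjusted p = 0.0435), and Hopx, a homeodomain protein induced by T-bet, fell (log2 FC -0.73, adjusted p = 0.0429). The same comparison of CD8+ T cells called 1 higher, Il12rb2 of the IL-12 receptor (log2 FC 0.45), and 5 lower, with a median of -0.887, where 9.01% of all genes were higher and 8.21% lower. Those that fell included the chemokine gene Ccl5 (-1.88), Hopx (-1.39), the granzyme gene Gzmb (-1.25), and the chemokine receptor gene Cxcr3 (-0.92). Relative to STAT3-/-, 0 rose and 4 fell in STAT3-/-PD-1-/- CD8+ T cells (8.76% and 8.05% of all genes), and 1 rose and 2 fell in CD4+ T cells (6.05% and 5.03% of all genes). Loss of STAT3 alone went with a rise of Ccl5 in CD4+ T cells (1.67, edgeR adjusted p = 0.0125). Ccl5 was the 1 gene of 12 called there, where 0.151% of all genes were higher and 0.184% lower. In CD8+ T cells 0 of 12 were called, where 0.0583% of all genes were called.

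Of 9 genes of terminal effector cells, 8 were tested. In STAT3-/-PD-1-/- as compared with WT CD4+ T cells 2 fell by edgeR's test, the integrin gene Itgam (log2 FC -2.41) and the granzyme gene Gzma (-1.63), where 5.65% of all genes fell, and the median was -0.478. The CD8+ T cells of this comparison had 6 of 8 lower, among them Itgam (-3.21), Gzma (-2.00), Klf3 (-1.34), and the chemokine receptor gene Cx3cr1 (-1.27), with a median of -1.10, where 8.21% of all genes fell. Cd8a, Itgax, Klrb1c, Cd68, Cd79b, and 4 of the 8 general T cell markers were lower in the same CD8+ comparison, while Sdc1 was higher. Whether these changes are linked was not tested. Relative to STAT3-/-, 7 of 8 fell in STAT3-/-PD-1-/- CD8+ T cells, with a median of -1.07, where 8.05% of all genes fell, and 3 of 8 fell in CD4+ T cells, Itgam (-2.14), Klf3 (-1.45), and Ahnak (-1.01), with a median of -0.936, where 5.03% of all genes fell. For STAT3-/- as compared with WT, 0 of 8 were called in either subset, where few of all genes were called (CD4+ 0.334%, CD8+ 0.0583%). At shares this low, a count of 0 says little about this list. Its median was 0.683 for CD4+ libraries, beside 0.0111 over all genes tested, and 0.764 for CD8+ libraries, beside -0.00618. Gzma was higher in CD8+ than in CD4+ T cells of all 3 genotypes, with a log2 FC of 2.83 in WT and 2.48 in STAT3-/-PD-1-/-.

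The list around Bcl6 and follicular helper T cells held 12 genes, of which 11 were tested. In STAT3-/-PD-1-/- as compared with WT CD4+ T cells 0 rose and 5 fell by edgeR's test, where 7.21% of all genes rose and 5.65% fell, with a median log2 FC of -0.956 beside -0.0108 over all genes. Those that fell included the chemokine receptor gene Cxcr5 (-3.16), Tox2 (-1.91), Maf (-1.80), and the costimulatory receptor gene Icos (-1.30). Cxcr5 was at 9.23 and 12.3 CPM in WT, 2.92 and 2.85 in STAT3-/-, and 1.26 and 1.11 in STAT3-/-PD-1-/- CD4+ libraries, the order that Bcl6 had. It was also the 1 gene of the list that fell in STAT3-/- as compared with WT CD4+ T cells (-1.90, edgeR adjusted p = 0.0413). In that comparison 0.184% of all genes fell, and the median over the list was -0.285. For CD8+ T cells 4 fell in STAT3-/-PD-1-/- as compared with WT, led by Maf (-2.30) and the inhibitory receptor gene Btla (-1.18), where 8.21% of all genes fell. In STAT3-/- as compared with WT CD8+ T cells 0 of 11 were called, where 0.0583% of all genes were called. Relative to STAT3-/-, 0 rose and 3 fell in STAT3-/-PD-1-/- CD4+ T cells, namely Maf (-1.55), Cxcr5 (-1.26), and Btla (-0.88), where 6.05% of all genes rose and 5.03% fell. For CD8+ T cells this comparison called the cytokine gene Il21 higher (1.70, edgeR adjusted p = 0.0232) and Maf (-1.85) and Btla (-0.85) lower, where 8.76% of all genes rose and 8.05% fell. Among WT libraries, 8 of 11 were lower in CD8+ than in CD4+ T cells, led by Il21 (-3.74), where 5.59% of all genes were lower.

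Of 20 factors that partner or oppose the 7, 19 were tested. In STAT3-/-PD-1-/- as compared with WT CD4+ T cells edgeR's test called 2 higher, Myb (log2 FC 1.32) and the E protein gene Tcf4 (1.05), and 6 lower, where 7.21% of all genes were higher and 5.65% lower. Those that fell included the Id2 relative Id3 (-3.18), Tcf7, which encodes TCF-1 (-2.89), and Ikzf2, which encodes Helios (-1.11). For CD8+ T cells 1 rose, Myb (0.79), and 3 fell in STAT3-/-PD-1-/- as compared with WT, including Id3 (-1.96) and Hic1 (-1.16), where 9.01% of all genes rose and 8.21% fell. In STAT3-/- as compared with WT, 0 rose and 1 fell in CD4+ T cells (0.151% and 0.184% of all genes), and 0 of 19 were called in CD8+ T cells (0.0583% of all genes). Relative to STAT3-/-, edgeR's test called 1 higher and 5 lower of 19 in STAT3-/-PD-1-/- CD4+ T cells (6.05% and 5.03% of all genes), the fallers led by Id3 (-2.48), Tcf7 (-2.10), and Ikzf2 (-1.69), and 1 higher and 1 lower in CD8+ T cells (8.76% and 8.05% of all genes). Bach2, a repressor of effector differentiation, fell in STAT3-/-PD-1-/- T cells of both subsets (-1.56 in CD4+ and -1.07 in CD8+), and Myb rose (1.08 and 0.75).

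Of 11 cytokine receptors and STATs upstream of these factors, edgeR's test called 0 higher and 4 lower in STAT3-/-PD-1-/- as compared with WT CD4+ T cells, namely Il27ra (log2 FC -1.19), Stat3 (-1.13), Il7r (-0.92), and Il21r (-0.67), where 5.65% of all genes were lower. Stat3 is the gene deleted by design. For CD8+ T cells 3 fell, Stat3 (-0.996), Il27ra (-0.91), and Il21r (-0.80), where 8.21% of all genes fell. Relative to STAT3-/-, 1 of 11 rose and 2 fell in STAT3-/-PD-1-/- T cells of each subset. The shares of all genes were 6.05% and 5.03% in CD4+ and 8.76% and 8.05% in CD8+ T cells. The gene that rose in both was Il2ra, the high-affinity chain of the IL-2 receptor (0.83 in CD4+ and 0.71 in CD8+). Of 4 genes linked to Bhlhe40 in cytokine production, 1 of 4 fell in CD4+ and 1 of 3 tested in CD8+ T cells of STAT3-/- as compared with WT, where 0.184% and 0.0417% of all genes fell. In both it was Il1r1. Il1r1, which encodes an IL-1 receptor, was at 25.3 and 39.3 CPM in WT and 0.706 and 1.24 in STAT3-/- CD4+ libraries, and fell (-5.03, edgeR adjusted p = 0.00671). In CD8+ libraries it had 80 and 188 counts in WT and 2 and 3 in STAT3-/- (edgeR, adjusted p = 0.0454). Between STAT3-/-PD-1-/- and WT, 2 of 4 fell in CD4+ T cells, Il1r1 (-5.22) and Il2 (-1.73), and 1 of 3 fell in CD8+ T cells, again Il1r1, where 5.65% and 8.21% of all genes fell. Between STAT3-/-PD-1-/- and STAT3-/-, 0 of 4 were called in CD4+ T cells, where 11.1% of all genes were called. In CD8+ T cells 1 of 3 rose, Csf2, which encodes GM-CSF (2.02, edgeR adjusted p = 0.0411), where 8.76% of all genes rose.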

How the data were processed

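Per the study's methods, the authors aligned reads to mm10 (STAR) and counted them per RefSeq gene (HTSeq-count). They deposited raw counts beside RPKM values, which divide by exon length and library size. Labels also carry a protocol of a mesenchymal cell line and another library kit, which were not used.

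Differential expression used edgeR (version 4.0.16, under R version 4.3.3) on the deposited counts, with filterByExpr (minimum count 10, minimum total count 15), TMM scaling, and the quasi-likelihood test, with Benjamini-Hochberg adjustment over all genes tested and a threshold of 0.05. Each genotype fit held the 6 libraries of 1 subset, and the fit for CD8+ against CD4+ T cells and interactions held all 12. RPKM values as the authors deposited them served to compare genes and ratios. Alternatives were DESeq2 (version 1.42.0), limma (version 3.58.1) on log2(RPKM + 1) with a mean RPKM of at least 1, RLE factors, all genes with at least 1 count, the groups compared alone, blocks for the replicate number or the pool, and leaving out each library. Figures were drawn with matplotlib (version 3.10.9). The fits were tested on simulated data. The 7 factors, lists, and tests were chosen with earlier results of these data known.

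Genes named are the 7 factors, Stat3, Pdcd1, the coreceptors, up to 4 called genes of a list with the largest fold change, markers, and the 2 genes nearest to each factor. Of the listed genes, 1 is not reported here, although the counts over its list hold it. Nfkbia and Ctla4 replicate differences, and Klra8, Ncr1, Flt3, and Sdc1, were described after their values were seen. Per the study's methods each library pools several recipients, so p-values measure the spread between pools, not between animals. The deviations of same-numbered libraries from their group mean correlated at 0.199 to 0.630 across genes for the 3 pairs of CD4+ groups and at 0.583 to 0.646 for the CD4+ and CD8+ groups of a genotype, so these were taken as paired. In the titles, facility numbers form 1 run for each replicate number, but the labels do not say what a number marks. Replicates differed by more than counting noise.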

Additional observations from a re-analysis of the deposited data

Results flagged for a closer look

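Eomes stood out because every library of STAT3-/-PD-1-/- CD4+ T cells lay above, and every library of STAT3-/-PD-1-/- CD8+ T cells below, the libraries compared. Against WT it had a log2 fold change of 1.40 in CD4+ T cells and of -0.49 in CD8+ T cells, and this difference between the subsets was not tested. Against STAT3-/- it had 1.14 and -0.54. That difference, tested as an interaction, was -1.67 (SE 0.27) with an edgeR adjusted p of 0.274. The edgeR adjusted p was 0.0613 with the replicate number as a block. With the pool of recipients as a block, chosen after seeing the data, it was 0.0416. Within each replicate number it was 0.85 and 1.42 in CD4+ and -0.46 and -0.65 in CD8+ T cells. Because the libraries did not overlap, these signs were fixed in advance and add no support. Libraries of STAT3-/-PD-1-/- and STAT3-/- did not overlap for 59.2% of all genes in CD4+ and 63.1% in CD8+ T cells.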

How the results depend on the processing

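Of 483 log2 fold changes of the 7 factors under other settings (DESeq2, RLE factors, all genes, limma, the groups compared alone, blocks), 451 kept direction and side of the threshold, 26 passed and 4 missed it anew, and 2 reversed. Leaving out 1 library at a time gave 672 more, of which 575 kept both, 33 missed and 6 passed anew, and 58 reversed. RLE factors changed 0 calls on the 7 factors. The cause of these changes was not tested. Leaving out a library or fitting only the groups compared leaves fewer libraries to estimate the spread, but the genes called did not only fall. Only the groups compared gave 1950 genes in place of 1538 for STAT3-/-PD-1-/- as compared with WT CD4+ T cells. For STAT3-/- as compared with WT CD4+ T cells it gave 1 in place of 40. Depth limits the low genes, as Bcl6 in CD8+ STAT3-/-PD-1-/- libraries rested on 14 and 32 counts.

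In STAT3-/- as compared with WT CD4+ T cells, 40 genes were called, against 271 by DESeq2, 165 with all genes of at least 1 count, 17 by limma, and 1 with only the groups compared, and DESeq2 called 1 factor (Id2). In CD8+ T cells 7 genes were called, against 218 by DESeq2, 66 with all genes, 1 by limma, and 0 with only the groups compared. In STAT3-/-PD-1-/- as compared with STAT3-/- CD4+ T cells 1324 were called, against 2100 by DESeq2, and limma called 1 factor (Eomes) in place of 3, with Bcl6 and Id2 lost. Limma tested no Zeb2 in any comparison and no Bcl6 within CD8+ T cells, since their mean RPKM was under 1. In STAT3-/-PD-1-/- as compared with WT CD8+ T cells limma called 1 factor (Id2) of the 5 it tested, and DESeq2 called 3 in place of 2, with Eomes added. As compared with STAT3-/- DESeq2 called 2 (Eomes and Id2), all genes 2, and only the groups compared 1, in place of 0. In CD8+ as compared with CD4+ T cells, only the groups compared gave 818, 523, and 201 genes for WT, STAT3-/-, and STAT3-/-PD-1-/- in place of 1294, 1187, and 511, and for STAT3-/-PD-1-/- it gave 1 factor, as did limma, in place of 2. For the interactions, DESeq2 called 5 and limma 1 genes for STAT3-/- as compared with WT, and DESeq2 21 and all genes 9 for STAT3-/-PD-1-/- as compared with STAT3-/-, with 1 factor (Eomes) in both of the latter. The Bcl6 interaction for STAT3-/- as compared with WT was 0.10 by limma, a reversal.

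With the replicate number as a block, 303, 3104, and 3105 genes were called in CD4+ T cells for STAT3-/- as compared with WT, STAT3-/-PD-1-/- as compared with WT, and STAT3-/-PD-1-/- as compared with STAT3-/-. The block added 1 factor, Id2, to the first and Prdm1 to the second, changed no other call on the 7 factors there, and turned Tbx21 in the second to 0.037. In CD8+ T cells the correlations by the same measure were 0.651, 0.160, and 0.060, and these groups were not taken as paired. There the block called 9, 2965, and 2932 genes, and Eomes with a log2 fold change of -0.50 (edgeR, adjusted p = 0.0389) as compared with WT and -0.54 (adjusted p = 0.0314) as compared with STAT3-/-, where it was the 1 factor called. In CD8+ as compared with CD4+ T cells the block gave 2014, 1909, and 939 genes, and a block by pool of recipients 2991, 3077, and 1774, with 3, 5, and 4 factors called. The block by pool, which was chosen after seeing the data, called 22 genes and 1 factor in the second interaction.

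Leaving out 1 library at a time, the genes called ranged from 1 to 49 (STAT3-/- as compared with WT), 62 to 1947 (STAT3-/-PD-1-/- as compared with WT), and 0 to 1212 (STAT3-/-PD-1-/- as compared with STAT3-/-) in CD4+ T cells, and from 0 to 2, 111 to 1908, and 2 to 1878 in CD8+ T cells. The lowest values of the last 2 comparisons of each subset were without STAT3-/-PD-1-/- replicate 2, and without replicate 1 they were 147 and 66 in CD4+ and 835 and 1034 in CD8+ T cells. In CD8+ as compared with CD4+ T cells the range was 611 to 1320, 428 to 1135, and 163 to 505. The factors called ranged from 0 to 4 and 0 to 3 in the last 2 CD4+ comparisons, 0 to 2 and 0 to 1 in CD8+ T cells, and 1 to 2 for CD8+ as compared with CD4+ T cells in WT and in STAT3-/-PD-1-/-.

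The log2 fold changes that reversed without 1 library ranged as follows. Bhlhe40 ranged from -1.49 to 0.80, -1.45 to 0.11, and -1.37 to 0.63 in the 3 CD4+ comparisons, from -1.65 to 1.27, -1.50 to 0.65, and -1.34 to 0.87 in CD8+ T cells, from -1.97 to 0.46 and -2.00 to 0.80 between subsets in WT and STAT3-/-, and from -1.46 to 1.46 and -1.23 to 1.58 in the interactions. Tbx21 ranged from -0.63 to 0.42 and -1.04 to 0.25 for STAT3-/-PD-1-/- as compared with WT in CD4+ and CD8+ T cells, from -0.16 to 0.46, -0.32 to 0.53, and -0.89 to 0.51 between subsets, and from -0.44 to 0.42 and -0.94 to 0.46 in the interactions. Prdm1 ranged from -0.19 to 0.48 and -0.068 to 0.60 for STAT3-/- as compared with WT and STAT3-/-PD-1-/- as compared with STAT3-/- CD8+ T cells, from -0.31 to 0.35 and -0.15 to 0.016 between subsets in STAT3-/- and STAT3-/-PD-1-/-, and from -0.50 to 0.16 and -0.42 to 0.24 in the interactions. Eomes ranged from -0.020 to 0.11 for STAT3-/- as compared with WT CD8+ T cells, and Id2 from -0.38 to 0.28 and -0.24 to 0.24 in the interactions. In the second interaction Bcl6 ranged from -0.17 to 0.92 and Zeb2 from -0.33 to 0.29. None of these reversals touched a call.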
